A study of Mus musculus with 8 samples.

Results

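Accessible regions of 2 kinds in mouse granulosa cells were described, both chosen by which of 8 ATAC-seq libraries had a peak there. Set a holds regions with a peak in both libraries titled PMSG, in wild-type replicate 1 (WT1) and in PR knockout replicate 2 (KO2), and no peak in both libraries titled hCG, in WT2 and in KO1. Set b is the mirror image, with a peak in both hCG libraries, in WT2 and in KO1, and none in both PMSG libraries, in WT1 and in KO2. Among the 4 PR libraries, each set therefore takes 1 of each genotype, and the sets record how the replicates of 1 genotype differed from each other. Merging the intervals of all 8 lists on chromosomes 1 to 19 and X gave 98245 regions. Set a had 511 of them (0.520%) and set b 296 (0.301%). Peak presence chose the members, so their presence and peak strength are given as a description and no test was made on them.

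The LH experiment used CBA x C57BL/6 F1 wild-type mice and gave 2 hCG and 2 PMSG libraries. The PR experiment used the strain C.129S7(B6)-Pgrtm1Bwo/OmcJ and gave 2 wild-type (WT) and 2 PR knockout (KO) libraries. All mice were 21 days old and were primed with 5 IU of eCG, a gonadotropin from pregnant mares that is also called PMSG. PMSG mice were killed at 46 h, and the others received 5 IU of hCG (human chorionic gonadotropin) at 46 h and were killed 6 h later. Each library pooled granulosa cells of 2 to 3 mice, so mice within a pool cannot be told apart. The time tags of the LH libraries (0 h for hCG and 6 h for PMSG) contradict their titles and source names, and every direction below follows the titles. Tags of 6 h after hCG also sit on the PR libraries, whose source name calls the cells pre-ovulatory, while the design text of the series places them after hCG. In ATAC-seq of pooled cells, a site open in fewer cells and a site less open in each cell cannot be told apart.

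Granulosa cells surround the oocyte and respond to the mid-cycle surge of luteinising hormone (LH), which hCG mimics. The surge ends the follicular programme of oestrogen synthesis and proliferation and starts the programme of ovulation and luteinisation. PGR, the progesterone receptor, is a nuclear receptor that granulosa cells make briefly after the surge, and mice without it fail to ovulate. ATAC-seq reads open chromatin through the transposase Tn5, which inserts adapters where DNA is accessible, so a peak marks a promoter, enhancer or other open element.

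Few members lay at a promoter, and these are the members whose sequence could be read, so the sequences printed here stand for the promoter members and not for the distal majority. Of the 495 members of set a on chromosomes with promoter windows at hand, 2 overlapped a RefSeq promoter window, which runs from 250 bases before to 50 bases after a transcription start. Of 288 such members of set b, 2 did as well. The same overlap held for 11990 of 94912 merged regions (12.6%), but for only 1.09% of PMSG-only and 1.83% of hCG-only regions, values inside the Wilson 95% intervals of set a (0.111% to 1.46%) and set b (0.191% to 2.50%). The strand-matched 250 bases before the start are printed here for 1 promoter of each set, from RefSeq on GRCm38.p6. Capitals mark the stretch between the outermost summits (peak tops) of the 4 libraries that hold the region, as far as it lies before the start. The set a sequence precedes the long non-coding RNA 4930579J19Rik on the minus strand at chr13:38461794-38462043, inside Bmp6, which codes for a bone morphogenetic protein. The set b sequence precedes Itga11, an integrin alpha chain that binds collagen, on the plus strand at chr9:62677605-62677854.
4930579J19Rik: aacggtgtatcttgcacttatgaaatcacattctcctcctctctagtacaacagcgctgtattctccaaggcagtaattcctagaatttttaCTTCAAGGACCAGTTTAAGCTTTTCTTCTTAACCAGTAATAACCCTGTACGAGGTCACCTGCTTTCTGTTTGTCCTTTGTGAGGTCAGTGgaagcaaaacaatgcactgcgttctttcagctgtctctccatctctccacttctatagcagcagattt
Itga11: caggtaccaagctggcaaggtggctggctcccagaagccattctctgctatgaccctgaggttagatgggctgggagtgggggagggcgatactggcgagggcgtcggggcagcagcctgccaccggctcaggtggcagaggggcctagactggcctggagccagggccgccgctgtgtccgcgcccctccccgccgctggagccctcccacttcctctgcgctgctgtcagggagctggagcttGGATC

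The 2 sequences differ in composition. The one at 4930579J19Rik is 42% G and C with 4 CpG sites, and the one at Itga11 is 68.4% G and C with 12 CpG sites. All 250 bases at 4930579J19Rik lay inside the region, with summits 158 to 69 bases before the start and the authors' fold (enrichment over background, from the deposited lists) at 9.81 in PMSG1, 10.99 in PMSG2, 7.64 in WT1 and 4.14 in KO2. At Itga11, 166 of the 250 bases lay inside the region. Its summits lay between 5 bases before and 25 bases after the start, and its folds were 6.24 in hCG1, 7.12 in hCG2, 6.15 in WT2 and 5.87 in KO1. Of 12 short motifs searched on both strands, the E-box CAGCTG was found in the 4930579J19Rik sequence, 41 bases before the start, and none was found at Itga11. CAGCTG is present in 13.0% of the 32851 RefSeq upstream sequences of the same length. The other motifs searched were AP-1 TGANTCA, RUNX TGTGGT, the site AGATAA of GATA factors, NR5A CAAGGTCA, forkhead GTAAACA, steroid receptor ACANNNTGT, TEAD GGAATG, C/EBP TTGCNNAA, CRE TGACGTCA, TCF/LEF ATCAAAG and the CTCF core, and each was found in between 0.350% and 14.0% of those sequences. The other 2 members at promoters, at Aste1 in set a and Gm32465 in set b, are not printed. The Gm32465 region also lies inside Adcyap1 and is named again under that gene.

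Lists differed in length. They held 55654 (KO2) to 84313 (WT2) intervals, with 80137 in WT1 and 58851 in KO1, and read depth is unknown. KO2 covered 31.7 Mb and KO1 38.9 Mb, while WT1 covered 43.9 Mb and WT2 43.6 Mb. Of 8 granulosa marker genes, between 6 and 7 had a peak within 1 kb of a gene end in each library, including Fshr, Foxl2, Amh and Inha in all 8. Cyp19a1, a granulosa marker, had none there in any library. Markers of other cells had such peaks for 2 to 4 of 6 theca and stroma genes, 2 of 5 endothelial genes, 0 to 1 of 5 immune genes and 1 to 2 of 5 oocyte genes. WT1 had 4 theca and stroma genes, with Cyp17a1 and Pdgfra among them, PMSG2 had 3 with Cyp17a1, and the other 6 libraries had 2. The oocyte gene Zp3 had a peak in hCG2 and KO1 alone, and the macrophage gene Cd68 in hCG1 and hCG2 alone. The part of these differences in the sets was not tested.

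The members are the crossed part of a wider pattern, seen when regions of 1 LH group were sorted by the PR libraries that held them. PMSG-only regions (both PMSG and no hCG library) numbered 8338, 8.49% of all regions, and hCG-only regions 14212 (14.5%). Of PMSG-only regions, set a made up 6.13%, and of hCG-only regions, set b made up 2.08%. Only 2 hCG-only regions had the PR pattern of set a, and 17 PMSG-only regions had that of set b. Other pairs of PR libraries held WT1 with KO1 (116 PMSG-only, 45 hCG-only), WT2 with KO2 (34 and 56), both WT (1150 and 2363) and both KO (14 and 5).

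**Figure D1:**
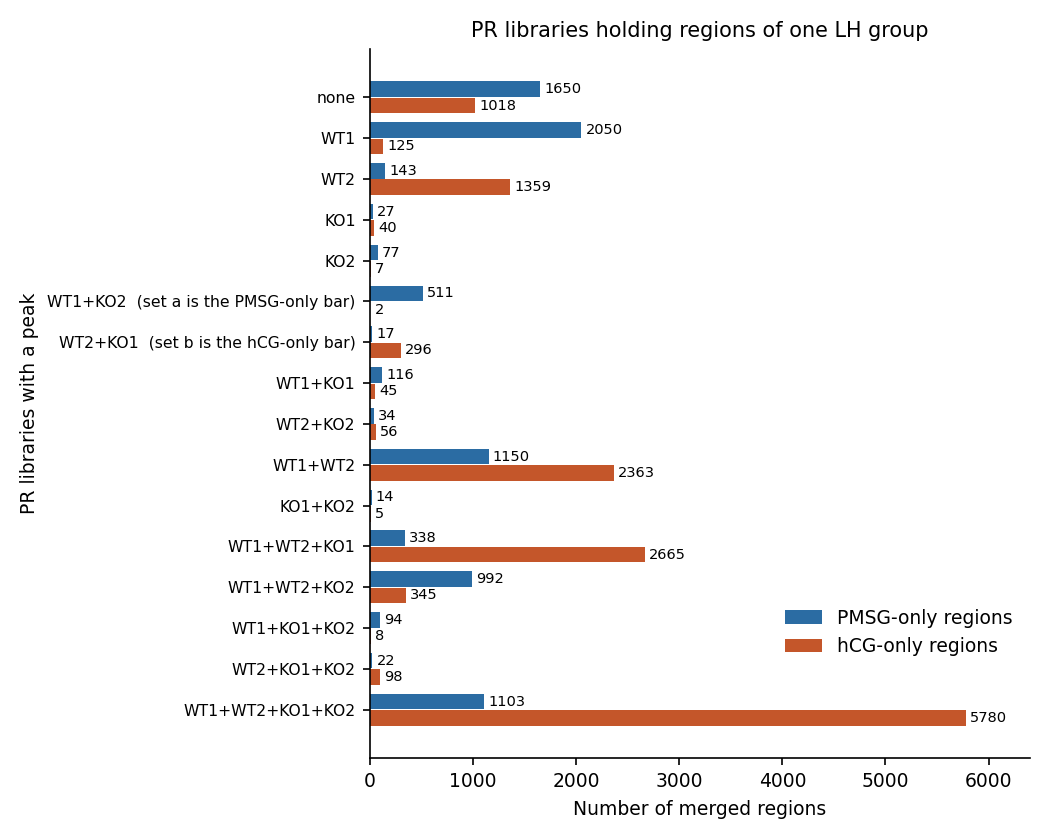
Number of merged regions (horizontal axis) held by each combination of PR libraries (vertical axis), for PMSG-only regions (blue) and hCG-only regions (orange). Set a is the PMSG-only bar of WT1 with KO2 (511 against 2 hCG-only), and set b the hCG-only bar of WT2 with KO1 (296 against 17 PMSG-only).

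Regions of other patterns, which the rule left out, split between the LH groups as well. WT1 was the sole PR library at 2050 PMSG-only and 125 hCG-only regions, and WT2 at 143 and 1359. KO2 was the sole PR library at 77 PMSG-only and 7 hCG-only regions, and KO1 at 27 and 40. As shares of their LH group the KO1 counts were 0.324% and 0.281%, so KO1 alone did not lean to hCG by share. Regions missing from 1 PR library alone showed it as well. WT2 alone lacked 94 PMSG-only and 8 hCG-only regions, and WT1 alone lacked 22 and 98. KO1 alone lacked 992 PMSG-only and 345 hCG-only regions, and KO2 alone lacked 338 and 2665. With 55654 intervals from every list, KO2 was the sole PR library at 834 PMSG-only and 86 hCG-only regions and KO1 at 212 and 357. By share of the LH group, the exception in these patterns was KO1 as the sole PR library with all peaks. WT1 and WT2 come from 1 genotype, as do KO1 and KO2, so the split crossed the genotypes. No count here was tested.

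Set sizes depended on the list length and on single libraries. With 55654 intervals from every list, set a had 1094 of 81563 regions (1.34%) and set b 565 (0.693%). Of the 511 set a regions, 278 (54.4%) overlapped a set a region of that setting, but only 64 of the 296 set b regions (21.6%) did so for set b. Without KO2 set a would have had 2574 regions, and without WT2 1503. Without WT1 set b would have had 2970, and without KO1 1660. Leaving out a library removes a condition of the rule, so larger sets follow from the rule itself. Only the size of the increase differs between libraries.

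The weakest peak of a set a member was in KO2 for 439 of 511 members, in WT1 for 53, in PMSG2 for 12 and in PMSG1 for 7. In set b the weakest peak was in KO1 for 130 of 296, in hCG1 for 67, in hCG2 for 57 and in WT2 for 42. Every list ended at a −log10 q of 10, which is the threshold for presence. The weakest peak of a member had a median −log10 q of 17.2 in set a and 18.1 in set b, and was under 12 for 60 members of set a (11.7%) and 45 of set b (15.2%). The members closest to the threshold had 10.1 in WT1 (set a) and 10.005 in hCG1 (set b). Just outside set a were 94 regions with an extra peak in KO1 (median −log10 q 16.7, lowest 10.1) and 992 with one in WT2 (median 26.3, lowest 10.1). Just outside set b were 98 regions with an extra peak in KO2 (median 18.8, lowest 10.3) and 2665 with one in WT1 (median 38.3, lowest 10.01). Libraries that lacked a member rarely had a peak close by. A peak within 500 bp in any of the 4 lacking libraries was seen for 31 members of set a (6.07%) and 22 of set b (7.43%).

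Peak strength was read as the rank percentile of the authors' fold within a library's own list, where 100 is the strongest. Set a was of middling strength in the PMSG libraries and weak in KO2. Its median percentile was 49.7 in PMSG1, 51.7 in PMSG2, 37.6 in WT1 and 18.9 in KO2. Set b was weak in all 4 libraries, with medians of 27.2 in hCG1, 27.5 in hCG2, 29.4 in WT2 and 21.7 in KO1. Regions held by all 8 libraries had medians between 62.7 (hCG2) and 72.9 (WT1). In the upper 50% of the list were 255 set a members in PMSG1, 159 in WT1 and 27 in KO2, and in set b 44 in hCG1, 55 in WT2 and 20 in KO1.

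**Figure D2:**
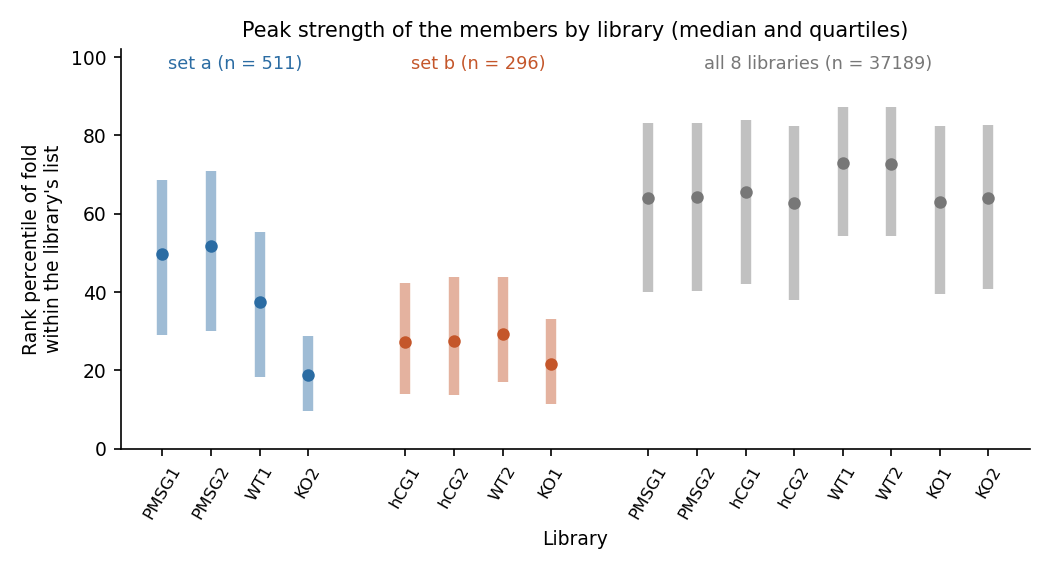
Rank percentile of the authors' fold within each library's list (vertical axis) for set a, set b and regions held by all 8 libraries; points are medians and bars run between the quartiles over regions. Set a lay highest in the PMSG libraries (49.7 and 51.7) and lowest in KO2 (18.9), and set b lay between 21.7 and 29.4 in its 4 libraries.

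Other regions of the same LH group lay below, near or above the members in strength. PMSG-only regions held by no PR library had a median percentile of 24.6 in PMSG1 and 24.3 in PMSG2, below set a, and those held by all 4 PR libraries had 42.2 and 43.7. Set a thus lay above both in the PMSG libraries, as a description. hCG-only regions held by all 4 PR libraries had 53.1 in hCG1 and 51.4 in hCG2, above set b, and those held by no PR library had 21.9 and 22.9. hCG-only regions held by both WT and no KO library had 30.4 and 31.6, close to set b, and PMSG-only regions of that kind had 35.5 and 35.9, below set a. These values are from the lists that chose the sets and were not tested.

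The 10 strongest members of set a, by mean percentile over the 4 libraries, were mostly far from the ends of protein-coding genes. The strongest was on chromosome 2 at 138235966 to 138236567, outside genes and 20.3 kb from Btbd3, a BTB-domain gene. Its fold was 19.3 in PMSG1, 18.5 in PMSG2, 14.8 in WT1 and 10.8 in KO2. The region on chromosome X at 130629024 to 130629625, nearest to the formin gene Diaph2 at 163 kb, had folds of 19.2, 19.7, 14.5 and 8.88 in the same order. The region on chromosome 16 at 76558163 to 76558549 had 15.95, 18.7, 11.8 and 9.12. Its nearest protein-coding gene, 185 kb away, was Nrip1, a nuclear receptor corepressor needed for ovulation, but a RefSeq transcription start lay 9.56 kb away. In all 3 the KO2 fold was the lowest and both PMSG folds were the highest.

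Of the other 7, 2 lay inside genes. The one inside Cadm2, a cell adhesion gene, had folds of 17.6, 16.4, 10.9 and 9.73, and the one inside Immp2l, a mitochondrial peptidase gene, had 16.5, 20.7, 11.8 and 6.93. The others were nearest, among protein-coding genes, to Elavl2, Lrrc3b, Gm42163, Rcn1 and Kif21a, between 28.2 and 200 kb away. The region named for Rcn1 was 3.18 kb from a RefSeq transcription start. The highest single fold of set a was at Gm42163, 22.5 in PMSG1 and 21.4 in PMSG2, against 11.5 in WT1 and 6.69 in KO2. Across all 10, the KO2 fold ranged from 6.45 to 10.8 and was below the other 3 folds at each region.

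The 10 strongest members of set b had folds more alike in the 4 libraries. The strongest, on chromosome 11 at 31917735 to 31918127 inside Cpeb4, a regulator of mRNA polyadenylation, had a fold of 14.4 in hCG1, 13.7 in hCG2, 19.3 in WT2 and 11.5 in KO1. The next, on chromosome 11 at 7134127 to 7134657 inside the adenylyl cyclase gene Adcy1, had 11.8, 14.0, 13.1 and 11.4 in the same order. The third, on chromosome 5 at 108563278 to 108563749, was 5.59 kb from Gak, a kinase gene of clathrin uncoating, and had 10.8, 10.2, 14.6 and 11.6. WT2 was the highest library at Cpeb4 and Gak and hCG2 at Adcy1. By rank percentile within the list the same libraries were highest. The median fold of regions held by all 8 libraries was highest in WT2 as well, at 11.6.

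Regions inside Grm7, Zbtb7c, Lrrc7, Nckap1l and Meis1 made up the rest, with regions outside genes whose nearest genes were Gask1b (137 kb) and Slc38a2 (96.5 kb). At Grm7, a glutamate receptor gene, the hCG folds were 13.3 and 13.1, above 8.23 in WT2 and 7.70 in KO1. At Zbtb7c the order was the opposite, with 8.23 and 9.37 in hCG against 13.6 in WT2 and 10.8 in KO1. At Meis1, a homeobox factor, the folds were close, at 8.48, 9.66, 9.42 and 10.2.

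**Figure D3:**
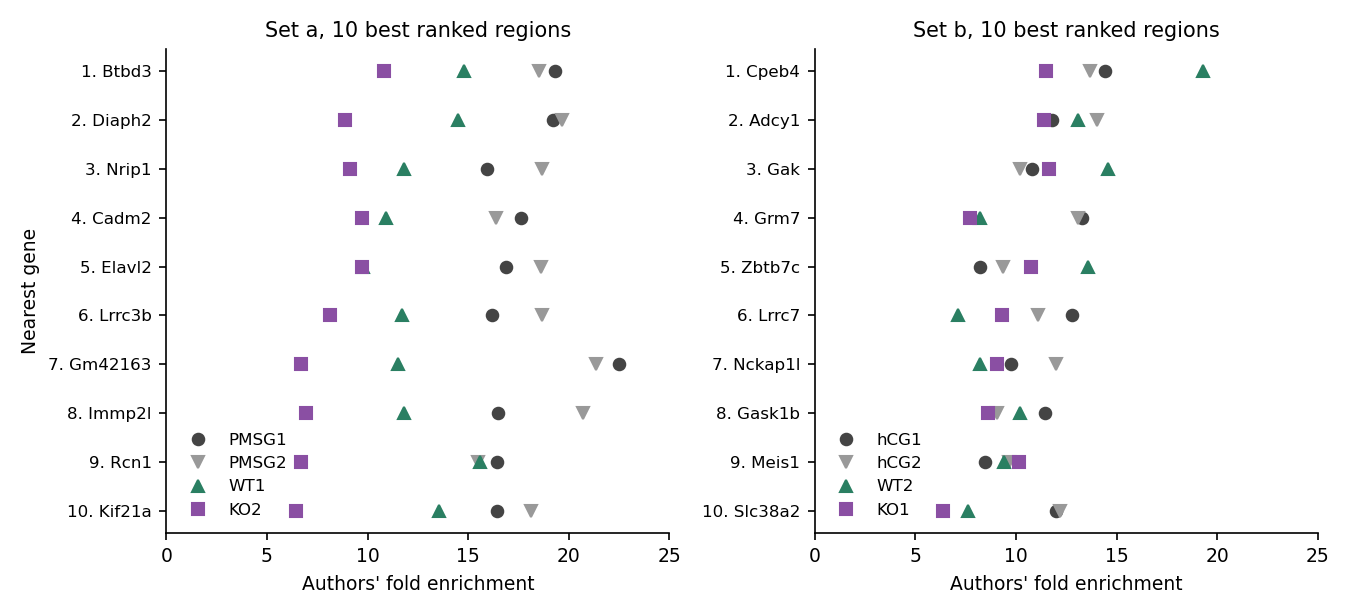
The authors' fold enrichment (horizontal axis, a linear ratio within each library) of the 10 best ranked regions of each set, labelled by nearest gene; each marker is 1 library. KO2 is the lowest of the 4 markers in every set a row, from 6.45 to 10.8, while in set b the order of the libraries varies, from 8.48 to 10.2 in all 4 at Meis1. Fold is on a scale of its own in each library, so the order of markers in a row partly depends on that scale.

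Peaks of different libraries sat at the same place within a member, which the rule did not require beyond overlap. In set a the median distance between best summits was 14 bp for PMSG1 and PMSG2, 18 bp for PMSG1 and WT1, 24 bp for PMSG1 and KO2 and 27 bp for WT1 and KO2. In set b it was 18 bp for hCG1 and hCG2, 18 bp for hCG1 and WT2, 24 bp for hCG1 and KO1 and 23 bp for WT2 and KO1. Summits of all 4 libraries fell within 100 bp of each other in 424 members of set a (83.0%) and 218 of set b (73.6%). In regions held by all 8 libraries, whose median interval widths were 567 to 754 bp, the median pair distances ran from 10 to 25 bp. Nearly every member was a single interval in each library, in 498 of 511 for set a and 284 of 296 for set b.

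With all peaks, the sets differed in where they lay relative to protein-coding genes, a property that the rule did not use. Set a was distal and set b was placed like hCG-only regions in general. The midpoint was inside a gene for 235 members of set a (46.0%, Wilson 95% interval 41.7 to 50.3) and for 183 of set b (61.8%, 56.2 to 67.2), against 60.1% of all regions. Over 50 kb from any gene end were 242 of set a (47.4%, 43.1 to 51.7) and 89 of set b (30.1%, 25.1 to 35.5), against 26.7% of all regions. Within 1 kb of a gene end were 9 of set a (1.76%, 0.929 to 3.31) and 6 of set b (2.03%, 0.932 to 4.35), against 14.4% of all regions. PMSG-only regions had 2.82% there and hCG-only regions 3.43%, both inside the interval of the matching set. With the same number of intervals from every list the gene-end share was 3.20% for set a and 2.83% for set b. With the best 20000 intervals it was 6.62%, outside the interval of set a, and 2.05% for set b. These intervals cover counting error over regions only, and no test was made.

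The most similar regions were distal as well. PMSG-only regions as a whole were inside genes in 52.9% (51.9 to 54.0) and over 50 kb from a gene end in 39.8% (38.7 to 40.8), and neither interval overlaps that of set a. PMSG-only regions held by no PR library were inside genes in 49.5% (47.1 to 51.9), those held by all 4 PR libraries in 50.5% (47.6 to 53.4), and those held by both WT and no KO library in 59.2% (56.4 to 62.02). Over 50 kb from a gene end were 43.4% (41.0 to 45.8), 41.3% (38.4 to 44.2) and 29.7% (27.2 to 32.4) of them. The set a intervals overlap those of the former 2 kinds and not those of the regions shared by the WT libraries. For set b, the in-gene share of hCG-only regions held by all 4 PR libraries was 55.3% (54.0 to 56.6) and that of hCG-only regions held by both WT and no KO library was 61.9% (59.9 to 63.8), and both intervals overlap that of set b. With the same number of intervals from every list, 52.3% of set a (49.3 to 55.2) was inside genes and 54.4% of PMSG-only regions. In that setting 40.7% of set a (37.8 to 43.6) was over 50 kb from a gene end, and 37.7% of PMSG-only regions. With the best 20000 intervals of every list, 61.5% of the 317 set a regions and 57.4% of the 244 set b regions were inside genes, so the order of the sets turned. With a −log10 q of 20 or more the shares were 52.0% and 56.4%. The sets were formed anew from those intervals, and the share of other regions in that setting was not computed.

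**Figure D4:**
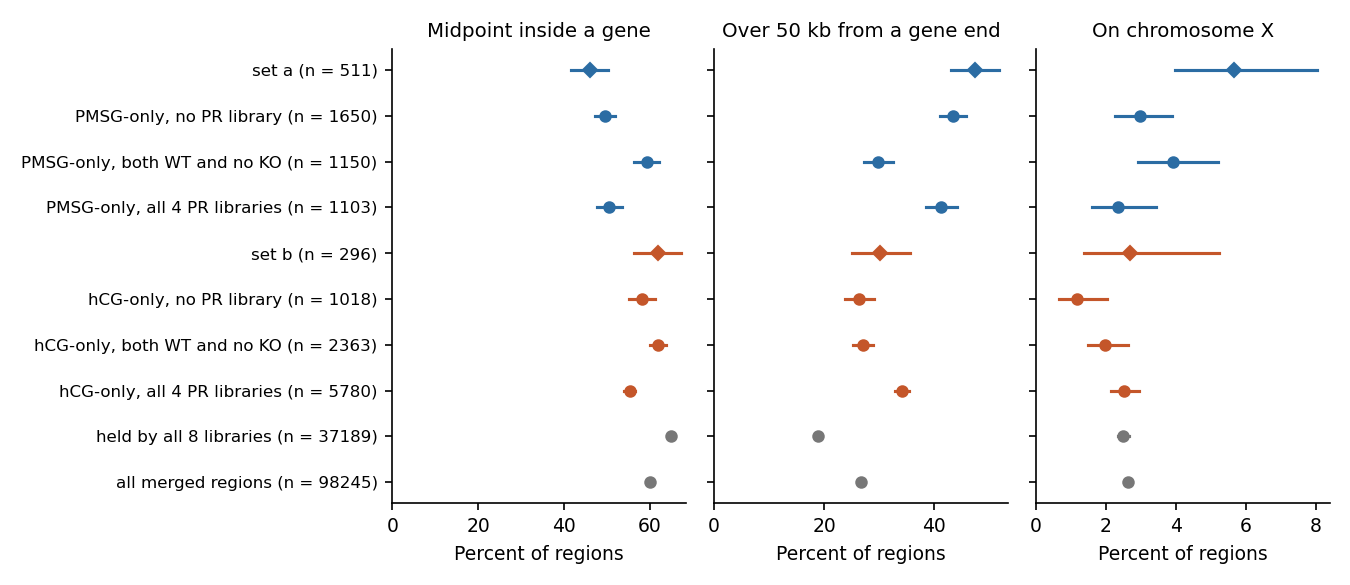
Percent of regions (horizontal axes) inside a protein-coding gene, over 50 kb from a gene end, and on chromosome X, with Wilson 95% intervals as lines, for set a, set b (diamonds) and other kinds of region (circles). Set a had 46.0% inside genes and 47.4% over 50 kb away, and set b 61.8% and 30.1%.

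Set a regions stood in sparser chromatin. A median of 9 other regions lay within 100 kb of a set a midpoint (quartiles 4 and 16) and 13 of a set b midpoint (9 and 19), against 15 over all regions (9 and 20). The median distance to the nearest gene end was 45.5 kb for set a, 25.2 kb for set b and 17.7 kb for all regions. The PMSG-only regions held by no PR library had a median of 10 neighbours and 38.1 kb.

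By chromosome, the set a share was highest on chromosome X. Chromosome X held 29 members of set a (5.68%, Wilson 95% interval 3.98 to 8.03), which is 11.2 per 1000 regions of that chromosome, and 2.63% of all regions. Chromosomes 16 and 1 followed with 7.03 and 7.01 per 1000, and chromosome 19 had the lowest value, 3.01. PMSG-only regions as a whole had 3.77% on X (3.38 to 4.20). The X share of set a was 3.47% (2.54 to 4.73) with the same number of intervals from every list, close to the 3.43% of PMSG-only regions there. Set b had 8 members on X (2.70%, 1.38 to 5.24), and its highest value was 4.66 per 1000 on chromosome 11, which also held its 2 strongest members.

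Members were spread over many genes. The 235 set a members inside genes fell in 226 genes and the 183 of set b in 181, some members counting for 2 overlapping genes. Set a had 3 members in Macrod2, a macrodomain gene 1998 kb long with 54 regions, and 2 each in Agbl4, Arfgef3, Arhgap15, Aven, Babam2, Cadm2, Dpp10, Msi2, Rbfox1 and Robo2, genes of 138 to 1555 kb with 9 to 61 regions each. Set b had 3 members in Meis1, a gene of 139 kb with 12 regions. It had 2 each in Ncor1, a nuclear receptor corepressor with 7 regions, and Furin, a protease that activates prohormones and growth factors, with 3 regions. The pair in Furin lay 2.99 kb apart and a pair in Meis1 8.28 kb apart. Members of 1 set within 50 kb of each other were few, at 20 in set a and 8 in set b.

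The 6 set b members at gene ends were at Itga11, Adm2, Vps26c, Wfdc1, Pdxp and Gfpt2, and Adm2 codes for a peptide of the calcitonin family. Those of set a included regions at Slc35f5, Cxcl13, Sectm1a, Ubfd1, Albfm1, Serpinb1a, Klhl9 and Tppp3, and Cxcl13 codes for a chemokine that attracts B cells.

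Regions around the members were compared as a description. Of 3012 regions that are no members and lay within 50 kb of set a, 332 were PMSG-only (11.02%, Wilson 95% interval 9.95 to 12.2), against 8.03% of all such regions, and 14.1% were hCG-only, against 14.3%. Around set b, 339 of 2146 were hCG-only (15.8%, 14.3 to 17.4) and 7.36% PMSG-only. Neighbours with the PR pattern of the set itself were few, 8 around set a (0.266%, 0.135 to 0.523, against 0.204%) and 20 around set b (0.932%, 0.604 to 1.44, against 0.694%).

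Gene lists for the follicle gave 9 members of set a and 4 of set b among 1357 regions within 20 kb of 108 genes. These are 0.663% and 0.295%, near the 0.520% and 0.301% of all regions. Of the 9 set a members, 6 were at pre-surge genes, the follicular genes that granulosa cells use before the surge. They lay at 6 of the 15 genes of that list and were 6 of 202 regions (2.97%) and 6 of 27 PMSG-only regions there (22.2%, against 6.13% of all PMSG-only regions). With the same number of intervals from every list there were 5 of 171 (2.92%, against 1.34% of all regions), at Cyp19a1, Esr2, Inha, Inhbb and Igf1. Of PMSG-only regions at these genes in that setting, 17.9% were set a members, against 10.9% of all PMSG-only regions. With a −log10 q of 20 or more there were 3, and without WT2 there were 12 in a set a of 1503 regions. Without KO2 there were 9, which are 33.3% of the PMSG-only regions at pre-surge genes, against 30.8% of all PMSG-only regions, so the higher share at these genes was nearly gone without that library. Without WT2 the shares were 44.4% and 18.02%, without WT1 28.6% and 7.12%, and without KO1 22.2% and 7.27%. These shares without a PR library were chosen after seeing the data. Over all lists, set a had 25 members without WT2 (set of 1503) and 23 without KO2 (set of 2574), and set b had 34 without WT1 (set of 2970), 22 without KO1 (set of 1660) and 7 without KO2. The sets themselves were larger in these settings, so the counts are not read as more members at listed genes. No list was tested.

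The strongest of these set a members was 8.23 kb outside Cyp19a1, the aromatase gene that makes oestrogen, on chromosome 9 at 54275980 to 54276807. Its fold was 11.96 in PMSG1, 13.4 in PMSG2, 10.2 in WT1 and 5.35 in KO2. A set b member lay inside the same gene, at 54222287 to 54222818, with 6.79 in hCG1, 8.95 in hCG2, 6.64 in WT2 and 6.36 in KO1. Cyp19a1 thus had 1 region of each set among its 13, and with the same number of intervals from every list 1 of set a and none of set b among 10. The set a member 3.16 kb from Igf1, the gene of an ovarian growth factor, on chromosome 10 at 87940059 to 87940352, had 8.70, 8.04, 7.88 and 5.83. The one inside Esr2, the oestrogen receptor beta gene, on chromosome 12 at 76145661 to 76145972, had 6.99, 8.42, 5.07 and 4.22. The remaining 3 were among the weakest members, with mean percentiles between 1.06 and 2.13. They lay inside Foxo1, a forkhead factor of growing follicles, inside Nr5a2, an orphan nuclear receptor of steroid synthesis, and 9.16 kb from Inha, the inhibin alpha gene. The gene nearest to the last was Stk11ip, 2.00 kb away. In the same order of libraries the folds were 3.05, 2.68, 2.70 and 2.68 at Foxo1, and 4.05, 3.72, 2.63 and 2.43 at Nr5a2. At Inha they were 3.21, 3.09, 1.94 and 3.33, with KO2 the highest.

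The other lists held few members or none. Among 142 regions at 13 PGR-dependent genes, set a had 1 (0.704%) and set b 2 (1.41%), beside 0.520% and 0.301% of all regions, and neither had any with the same number of intervals from every list. The set a region was inside Pparg, a lipid-sensing nuclear receptor, with folds of 5.42 in PMSG1, 5.94 in PMSG2, 2.93 in WT1 and 4.38 in KO2. A set b region was inside Vcan, the proteoglycan versican, with 5.72 in hCG1, 6.01 in hCG2, 2.37 in WT2 and 5.73 in KO1. The other was inside Adcyap1, the gene of the peptide PACAP, with 5.73, 6.49, 4.66 and 4.98. It is the region that overlaps the promoter window of Gm32465. Among 284 regions at 13 genes of cyclic nucleotide signalling, set a had 2 (0.704%) and set b 1 (0.352%). Set a had 1 region each in the phosphodiesterase genes Pde4b and Pde10a, and set b 1 in Prkar2b, a regulatory subunit of protein kinase A. Around the 17 LH-induced genes, with 192 regions of which 13 were PMSG-only and 40 hCG-only, neither set had a member. The lists for AP-1 (10 genes), luteal steroid and cholesterol genes (10), cell cycle (11), Wnt (10) and TGF-beta and activin (10) had none either, in 77 to 155 regions each. With set shares of 0.520% and 0.301% over all regions, lists of this size can hold no member without differing from the rest. With the same number of intervals from every list, the LH-induced list had 1 member of each set, and set a had 2 members at cell cycle genes (3.13% of 64 regions), 2 at TGF-beta and activin genes (1.63% of 123) and 1 at luteal genes (1% of 100), beside 1.34% of all regions. Set b had 4 at cyclic nucleotide genes in that setting (1.72% of 232 regions, beside 0.693% of all regions), and set a had 1.

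Regions that the rule excluded, those held by all 8 libraries, gave a measure from other regions but from the same libraries. Its pairing of WT1 with KO2 against WT2 with KO1 is that of the rule. The rule was set with earlier results of these data known, so the measure is not independent of that choice. For each of these 37189 regions the rank percentile in PMSG minus that in hCG was set against the difference between PR replicates. Across regions, Spearman's rho was 0.51 with the mean of WT1 and KO2 minus the mean of WT2 and KO1, and −0.02 with the WT mean minus the KO mean (−0.20 with the same number of intervals from every list). By genotype it was 0.39 with WT1 minus WT2 and 0.32 with KO2 minus KO1. With 1 PMSG and 1 hCG library at a time it ran from 0.37 to 0.38 for WT and from 0.29 to 0.32 for KO. WT1 minus WT2 and KO2 minus KO1 had a rho of −0.13 with each other, so the replicate differences of the 2 genotypes did not rank regions alike. These are correlations across regions, which share libraries and are not independent replicates, and no p is given.

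**Figure D5:**
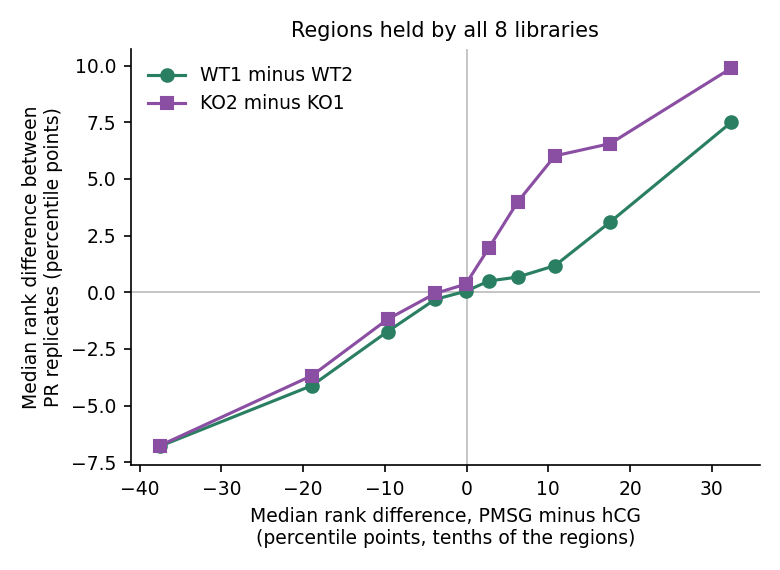
Median rank difference between PR replicates (vertical axis, percentile points) in 10 equal bins of the 37189 regions held by all 8 libraries, ordered by the rank difference of PMSG minus hCG (horizontal axis, median of each bin); circles are WT1 minus WT2 and squares KO2 minus KO1. Both run from −6.80 and −6.77 in the lowest bin to 7.49 and 9.89 in the highest.

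In the bin of regions that ranked lowest in PMSG relative to hCG (median difference −37.6 percentile points), WT1 ranked 6.80 points below WT2 and KO2 6.77 points below KO1. In the highest bin (32.4 points), WT1 ranked 7.49 points above WT2 and KO2 9.89 points above KO1. The bins were ordered by the LH difference, so the sizes of the LH and PR differences in them are not compared. With 2 libraries per genotype, each pooled from different mice, what sets WT1 and KO2 apart from WT2 and KO1 was not tested.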

How the data were processed

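The authors deposited 1 peak list per library in the narrowPeak layout. Bowtie2, MACS2 and build mm10 are named in the submitters' processing notes. Versions, settings and any Tn5 shift are not given in the sources used here. Names in the PR lists mention filtering and marked duplicates and those in the LH lists do not. Column 7 of the deposited lists was read as fold enrichment, a ratio over the caller's background, and column 9 as −log10 of a q-value; the lists hold no read numbers.

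Lines with the same start and end were reduced to 1 interval that took the highest fold. Intervals overlapping by 1 bp or more over the 8 lists were merged. Location used 21627 protein-coding RefSeq genes and promoters of GRCm38.p6, the assembly of mm10; promoters of chromosome 18 were not used here. Shares carry Wilson 95% intervals. The 10 best ranked members of each set, listed genes and genes with most members were named by rule, and sequences of distal members were not used here. The members and lists were chosen with earlier results of these data known. Motifs at distal members were not analysed here. Python 3.11.15, pandas 2.3.3 and scipy 1.17.1 were used, and the merge was tested on simulated data.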

Additional observations from a re-analysis of the deposited data

How the results depend on the processing

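No paired analysis was possible because the values come from no test. With the same number of intervals from every list, set a had 1094 regions and set b 565; with the best 20000 intervals set a had 317. Leaving out 1 library, which removes a condition of the rule and so enlarges the sets, gave 520 to 2574 regions for set a and 315 to 2970 for set b. The in-gene share of set a was 52.3% with the same number of intervals, 61.5% with the best 20000, 52.0% with a −log10 q of 20 or more, and 46.0% to 52.2% with 1 library left out. Its gene-end share was 6.62% with the best 20000 intervals, and within 5 kb instead of 1 kb of a gene end the share was 10.8% for set a and 15.5% for set b. Around the listed genes, a −log10 q of 20 or more gave 4 members of set a and 7 of set b, and leaving out 1 library gave 9 to 25 and 4 to 34; at pre-surge genes alone, set a had 6 to 12. For regions held by all 8 libraries, rho was 0.55 with the same number of intervals and 0.50 with a −log10 q of 20 or more, both chosen after seeing the data. The cause of these shifts was not tested. The other 98 alternative values stayed within 1.5 times the count or inside the interval. The motif alternatives were not run, as no sequence of distal members was used here.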
